A study of Mus musculus with 8 samples.

Results

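Basal cells of the mouse mammary gland were compared between 2 mice after involution (PI) and 2 nulliparous mice (NP). Basal cells were those that the authors' deposited annotation places in the subclusters C12, C13 or C14, among cells that passed all of its quality flags. Of the 23183 cells of the epithelial subclusters C1 to C15 over all 8 libraries of the series, 874 were basal cells of these 4 libraries. NP_1 held 504 and NP_2 held 283, whereas PI_1 held only 28 and PI_2 only 59. In PI_1, 27 of the 28 cells were of C12 and 1 was of C14, and in PI_2, 53 were of C12, 5 of C13 and 1 of C14.

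Every mouse was a C57BL/6N female and each library came from 1 mouse. NP mice were 8 weeks old and virgin, and PI mice were taken 11 days after their litters had weaned naturally. Parity, age and the days since weaning changed together between the groups and cannot be told apart. By the study's vaginal smears NP_1, NP_2 and PI_2 were in oestrus and PI_1 was in dioestrus. In all 4 libraries the cells were sorted as EpCAM-positive and negative for CD31, CD45 and Ter119, and were captured with droplet chemistry that counts the 3' ends of transcripts by unique molecular identifiers (UMIs).

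Basal cells form the outer layer of mammary ducts and alveoli, between the luminal cells and the basement membrane. In the mature gland many are myoepithelial: they carry smooth muscle actin and myosin, contract in response to oxytocin and so expel milk. The basal layer also lays down basement membrane, sends ligands to the luminal cells and holds the cells that repopulate a gland upon transplantation. After weaning most of the milk-secreting alveoli die and the gland is remodelled toward a resting state.

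The UMIs of the basal cells were summed per library, which gave 4254570 UMIs in NP_1 and 2196765 in NP_2 against 114382 in PI_1 and 312628 in PI_2. Levels below are CPM, counts per 1000000 UMIs of these sums, after scaling between libraries. A single UMI was worth 8.74 CPM of the unscaled sum in PI_1 and 3.20 CPM in PI_2, so that levels under about that size rest on 1 molecule. The median cell held 6046 and 6304 UMIs in the NP libraries and 3854 and 4427 in the PI libraries. The deepest cell gave 7.88% of the sum in PI_1 and 4.36% in PI_2. Across genes, log CPM of the replicates correlated at 0.983 in NP and at 0.779 in PI. The mean share of basal cells among C1 to C15 cells was 18.97% ± 6.69 in NP and 1.69% ± 0.37 in PI (SD, n = 2 each). The ranges, 14.2% to 23.7% and 1.43% to 1.94%, did not overlap, and an exact two-sided permutation test gave p = 0.333, the smallest that 2 against 2 allows. The share is one of sorted cells, so a change in EpCAM staining and a change in basal cell number cannot be told apart.

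Markers fitted the basal label, with a minority of cells that carried other genes. Of 10 basal markers all were measured, and Krt14 and Acta2 had UMIs in 27 and 26 of 28 PI_1 cells and in 59 and 56 of 59 PI_2 cells. Others were in fewer PI cells, Oxtr in 1 and 4 and Krt15 in 21.4% and 16.9%. The luminal keratin Krt8 had UMIs in 85.7% and 86.4% of the PI basal cells. Summed and unscaled, the 10 basal markers had 17383 and 17242 CPM in NP and 15684 and 14612 CPM in PI. In PI luminal progenitors their sums were 79.7 and 232 CPM. Markers of endothelium and of immune cells were close to absent: 8 of 10 and 10 of 12 had no UMI in the PI libraries. In CPM of the unscaled sums, the 12 immune markers added up to 96.8 and 136 CPM in NP and to 831 and 32.0 CPM in PI, and in PI_1 the whole 831 CPM was Cd74, the class II invariant chain. On the same scale the 10 luminal markers added up to 5337 and 3500 CPM in NP and to 2675 and 6797 CPM in PI, and the 10 fibroblast markers to 570 and 679 CPM in NP and to 463 and 656 CPM in PI.

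Both minorities were counted cell by cell. The authors named subcluster C15 Procr-positive basal cells and kept it among the epithelial cells. Because it expressed some pericyte markers, they could not exclude that its cells are non-epithelial. A set of 50 genes that mark the pericyte-like subcluster C15 of the lactating gland passed 0.5% of a cell's UMIs in 1 of 504 and 1 of 283 NP cells, and in 2 of 28 and 4 of 59 PI cells, or 7.14% and 6.78%. Luminal keratin outweighed basal keratin in 42 and 21 NP cells (8.33% and 7.42%), in 1 PI_1 cell (3.57%) and in 10 PI_2 cells (16.95%). The median cell with mostly luminal keratin held 16560 and 13420 UMIs in NP, against 5792 and 6143 in the other NP cells. In PI the medians were 4631 and 6874 against 3823 and 4230. Shares of cells thus do not give the weight of these cells in the sums. Leaving out both kinds left 461, 261, 25 and 46 cells, with 3440683, 1902439, 100158 and 228522 UMIs. These 2 kinds of cell were defined after the data had been seen, and genes with over 50% of their PI UMIs in such cells are named as such where their change is described.

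In the comparison of PI with NP, 379 of 8511 genes tested passed an adjusted p of 0.05 in edgeR's quasi-likelihood test (4.45%), of which 248 were higher (2.91%) and 131 lower (1.54%) in PI. A gene could enter this test through the libraries of a single group alone. The median log2 change over all genes tested was -0.05. Without cells of either kind 521 of 7898 genes passed (6.6%), 328 higher (4.15%) and 193 lower (2.44%), and 333 genes were called in both fits. When the NP cells were drawn down to 28 and 59, a median of 267.5 genes passed over 20 draws (range 168 to 366). Of the 379 genes, 72 passed in all 20 draws, 215 in more than 10 of them and 29 in none. The named genes held 97 calls, of which 0 were lost without PI_1, 25 without NP_1, 31 without NP_2 and 13 without PI_2, and Hp turned direction without PI_2. With 2 mice a group, p-values measure the spread between these mice only.

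**Figure D1:**
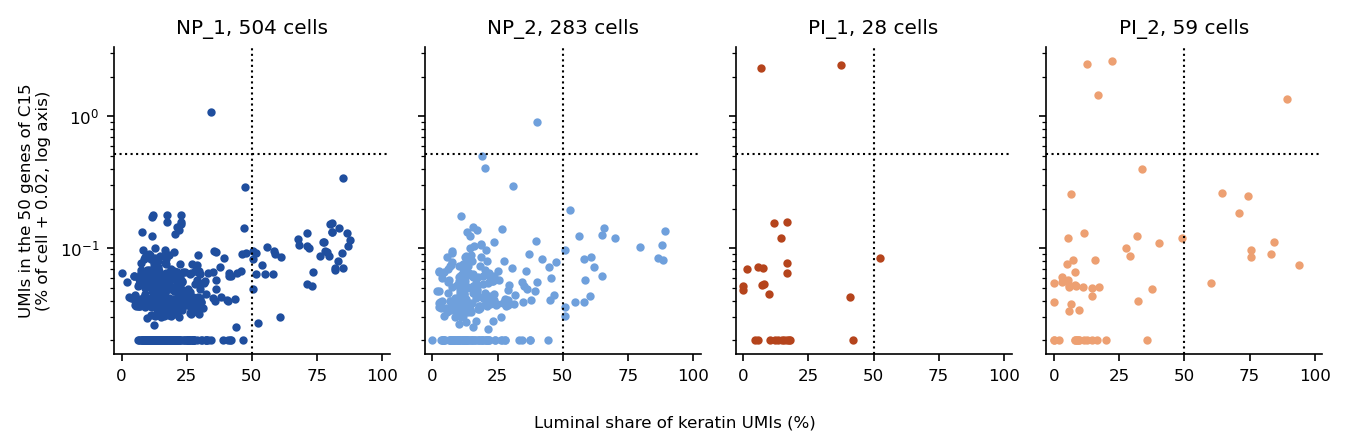
Each point is 1 basal cell, with the share of its keratin UMIs that were luminal on the horizontal axis (%) and the share of its UMIs in the 50 genes of C15 on the vertical log axis (% of the cell plus 0.02), and the dotted lines are the limits of 50% and 0.5%. In PI_1 2 cells and in PI_2 4 cells lie above the horizontal line, against 1 in each NP library.

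Of the contractile genes 5 of 22 tested fell after involution and 0 rose, beside 1.54% and 2.91% of all genes tested. The other 17 did not pass, and the median log2 change was -0.55 beside -0.05 over all genes. Acta2 (19:34241090-34255590, minus strand, GRCm38), smooth muscle actin, stood at 5544 and 5611 CPM in the NP libraries and at 2791 and 2918 CPM in the PI libraries. Both PI mice lay at close to the same level, well below both NP mice. The log2 change was -0.96 ± 0.16 (SE; edgeR adjusted p = 0.0128). Tagln, the actin-binding protein transgelin, fell from 2556 and 3262 CPM to 1340 and 957 CPM (log2 -1.36 ± 0.21, edgeR adjusted p = 0.00872). Actg2, the enteric smooth muscle actin, had 359 and 391 CPM in NP and 86.4 and 85.2 CPM in PI. This was the deepest fall of the list with over 300 CPM in NP, at a log2 change of -2.13 ± 0.20 (edgeR adjusted p = 7.75e-04). Myl6, a myosin light chain of muscle and non-muscle cells, fell by 0.80 on the log2 scale (edgeR adjusted p = 0.0287). Oxtr, the oxytocin receptor, had 52.0 and 75.6 CPM in NP and 8.64 and 16.4 CPM in PI, the last 2 levels resting on 1 and 5 UMIs. Its log2 change was -2.14 ± 0.47 (edgeR adjusted p = 0.0344) and -1.92 without cells of either kind (edgeR adjusted p = 0.0510), which is past the threshold in the first fit and not in the second.

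Of 15 marker genes taken from the study 14 could be tested. Krt14, Pdpn and Procr rose, Acta2 and Oxtr fell, and 9 did not pass, other keratins among them. Krt4 and Etv5 had only 3 UMIs each in PI, and Igfbp4, Gng11 and Zeb2 were not called. Krt14 (11:100203162-100207548, minus strand), a keratin of basal cells, rose from 2894 and 2821 CPM to 5514 and 4505 CPM (log2 0.81 ± 0.17, edgeR adjusted p = 0.0320). Its partner Krt5 had 773 and 719 CPM in NP and 657 and 364 CPM in PI, with an edgeR adjusted p of 0.171. Krt15 stood at 597 and 510.2 CPM in NP, and PI_1 at 398 CPM lay far above PI_2 at 68.8 CPM, with an edgeR adjusted p of 0.121. Of the 6 tested of basal keratins and p63, only Krt14 passed, and the median log2 change was -0.44. Pdpn, the surface glycoprotein podoplanin, rose from 186 and 188 CPM to 432 and 590.1 CPM (log2 1.49 ± 0.18, edgeR adjusted p = 0.00259). The luminal keratins Krt8 and Krt18 did not pass, and in both genes the PI mice lay on either side of NP_2 (Krt8 847 and 1715 CPM, Krt18 1002 and 2656 CPM). Krt19 had 34.6 CPM in PI_1 and 1138 CPM in PI_2, outside the NP range of 488 to 621 CPM on opposite sides. Luminal keratins were used to choose the cells with mostly luminal keratin, which held over 50% of the Krt18 and Krt19 UMIs in PI.

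**Figure D2:**
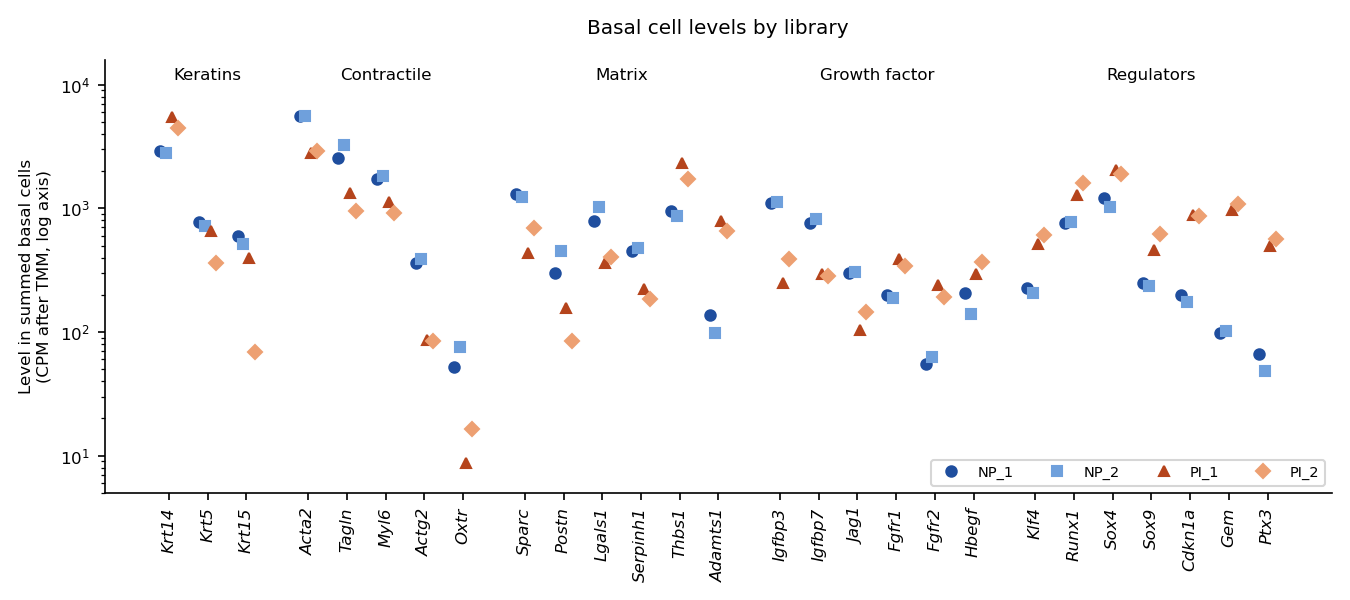
Levels of 27 genes in the summed basal cells (CPM after TMM scaling, log axis), with 1 point per library, NP in blue and PI in orange. For Acta2, Tagln and Igfbp7 both PI points lie below both NP points, for Krt14, Gem, Ptx3 and Cdkn1a they lie above, and Krt15 shows the PI libraries far apart, at 398 and 68.8 CPM.

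Matrix genes that passed went both ways, where 4.45% of all genes tested passed. Of 18 basement membrane genes 1 fell and 0 rose (median log2 -0.47), and of 19 interstitial matrix genes 2 rose and 2 fell (median -0.94). One of the rises was Sparcl1, described below, whose PI UMIs all lay in cells with the C15 gene set, and in the fit without cells of either kind 1 of 17 interstitial matrix genes rose and 4 fell (median -1.02). Sparc, a collagen-binding protein of basement membranes, fell from 1308 and 1229 CPM to 432 and 695 CPM (log2 -1.12 ± 0.21, edgeR adjusted p = 0.0203). Postn, periostin, fell from 298 and 456 CPM to 156 and 85.2 CPM (log2 -1.79 ± 0.31, edgeR adjusted p = 0.0153). Lgals1, the lectin galectin-1, fell by 1.23 on the log2 scale (edgeR adjusted p = 0.00882). Thbs1, thrombospondin-1, went the other way, from 945 and 865 CPM to 2307 and 1731 CPM (log2 1.15 ± 0.18, edgeR adjusted p = 0.00956). Serpinh1, the chaperone of newly made collagen, fell from 455 and 478 CPM to 225 and 184 CPM (log2 -1.23 ± 0.18, edgeR adjusted p = 0.00712). Of 22 integrin and adhesion genes, Cd44, the hyaluronan receptor, and Dst, a linker of hemidesmosomes to keratin, rose by 0.75 and 0.95 on the log2 scale, and Bcam, a laminin receptor, fell by 1.09. Their edgeR adjusted p-values were 0.0327, 0.0117 and 0.02, and the median log2 change of this list was -0.06.

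Adamts1, Adamts4 and Adamts5, secreted metalloproteases, rose. Of 19 matrix proteases and inhibitors 4 rose and 1, Serpinh1, fell, beside 2.91% and 1.54% of all genes tested (median log2 0.44). Adamts1 (16:85793827-85803113, minus strand), which cleaves versican and aggrecan, had 136 and 98.0 CPM in NP and 786 and 656 CPM in PI. Both PI mice were far above both NP mice, and the log2 change was 2.59 ± 0.20 (edgeR adjusted p = 3.57e-04). After each cell was thinned to 2000 UMIs, 13.5% and 13.8% of NP basal cells and 60.7% and 47.5% of PI basal cells had an Adamts1 UMI, beside 4.0% and 3.2% of PI luminal cells. Adamts5, an aggrecanase, rose from 11.5 and 9.99 CPM to 34.6 and 108 CPM (log2 2.94 ± 0.42, edgeR adjusted p = 0.00597), and without PI_2 it did not pass (log2 1.59, edgeR adjusted p = 0.345). Adamts4, the other main aggrecanase, had 3.74 and 1.43 CPM in NP and 95.1 and 68.8 CPM in PI, with a log2 change of 4.69 ± 0.46 (edgeR adjusted p = 8.70e-04). Over 50% of its PI UMIs were in the cells with the C15 gene set, and without cells of either kind its log2 change was 4.12 (edgeR adjusted p = 0.00584). In all basal cells Adamts4 entered the test only through PI, the group where it was high. Plaur, the urokinase receptor, rose by 0.71 on the log2 scale (edgeR adjusted p = 0.0446).

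Ptx3 and Gem were among the 15 largest rises. Ptx3 (3:66219910-66225805, plus strand), a secreted pattern-recognition protein that also binds hyaluronan matrix, had 65.8 and 48.0 CPM in NP and 493 and 561 CPM in PI (log2 3.21 ± 0.20, edgeR adjusted p = 1.75e-04). Gem (4:11704457-11714752, plus strand), a small GTPase that restrains calcium channels, had 97.4 and 103 CPM in NP and 968 and 1082 CPM in PI. The replicates lay close together in both groups, and the log2 change of 3.37 ± 0.16 had the smallest error of the 15 largest rises (edgeR adjusted p = 2.89e-05). Of basal cells thinned to 2000 UMIs, 18.1% and 15.9% in NP and 67.9% and 79.7% in PI had a Gem UMI, while PI luminal cells had 5.6% and 3.2%. Without cells of either kind the log2 change was 3.37 for Gem and 3.27 for Ptx3. Sncg, gamma-synuclein, rose from 6.09 and 4.76 CPM to 147 and 98.4 CPM (log2 4.34 ± 0.35, edgeR adjusted p = 3.73e-04), and Fam83a from 12.9 and 11.9 CPM to 112 and 59.0 CPM (log2 2.60 ± 0.37, edgeR adjusted p = 0.00649).

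The largest fitted rises sat in a handful of cells. Gm13889 had 7.26 and 3.33 CPM in NP and 519 and 266 CPM in PI (log2 5.97 ± 0.40, edgeR adjusted p = 1.75e-04), but UMIs of it were found in 4 cells of PI_1 and 4 of PI_2. Mustn1, a small nuclear protein of muscle and bone, was found in 1 and 4 PI cells, Sparcl1, a relative of Sparc, in 2 and 3, and the cytokine Il6 in 2 and 4. These 4 genes belong to the C15 set itself, and without cells of either kind they fell below the count filter and could not be tested. In all basal cells these 4, Adamts4 and Sncg had at most 7.26 CPM in each NP library, under the count filter there. So they entered the test only through PI, the group where they were high. H2-Q7 and C4b, low in 1 NP library, also needed a PI library to enter. Procr, the protein C receptor, had 18 and 13.8 CPM in NP and 319.8 and 161 CPM in PI and was found in 6 and 13 PI cells. Procr is also 1 of the 50 genes that chose the cells with the C15 gene set, so that its share of 66.3% of PI UMIs in them, and its level without them, depend in part on that choice. Without cells of either kind its log2 change was 2.37 (edgeR adjusted p = 0.00417) in place of 3.75 ± 0.34 (edgeR adjusted p = 6.01e-04). The 10 pericyte markers added up to 61.3 and 56.0 CPM of the unscaled sums in NP and to 166 and 109 CPM in PI, 3 of the 10 had no UMI in PI and 2 could be tested, none past the threshold. Of the PI sums 78.7 and 67.2 CPM were Mcam, an adhesion molecule also found in basal cells, which had 13.3% of its PI UMIs in the cells with the C15 gene set and log2 changes of 0.84 in all cells and 0.88 without cells of either kind. Notch3, with 77.8% of its PI UMIs there, is one of the 50 genes that chose those cells. Of the 15 largest rises, 11 were also called without cells of either kind.

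**Figure D3:**
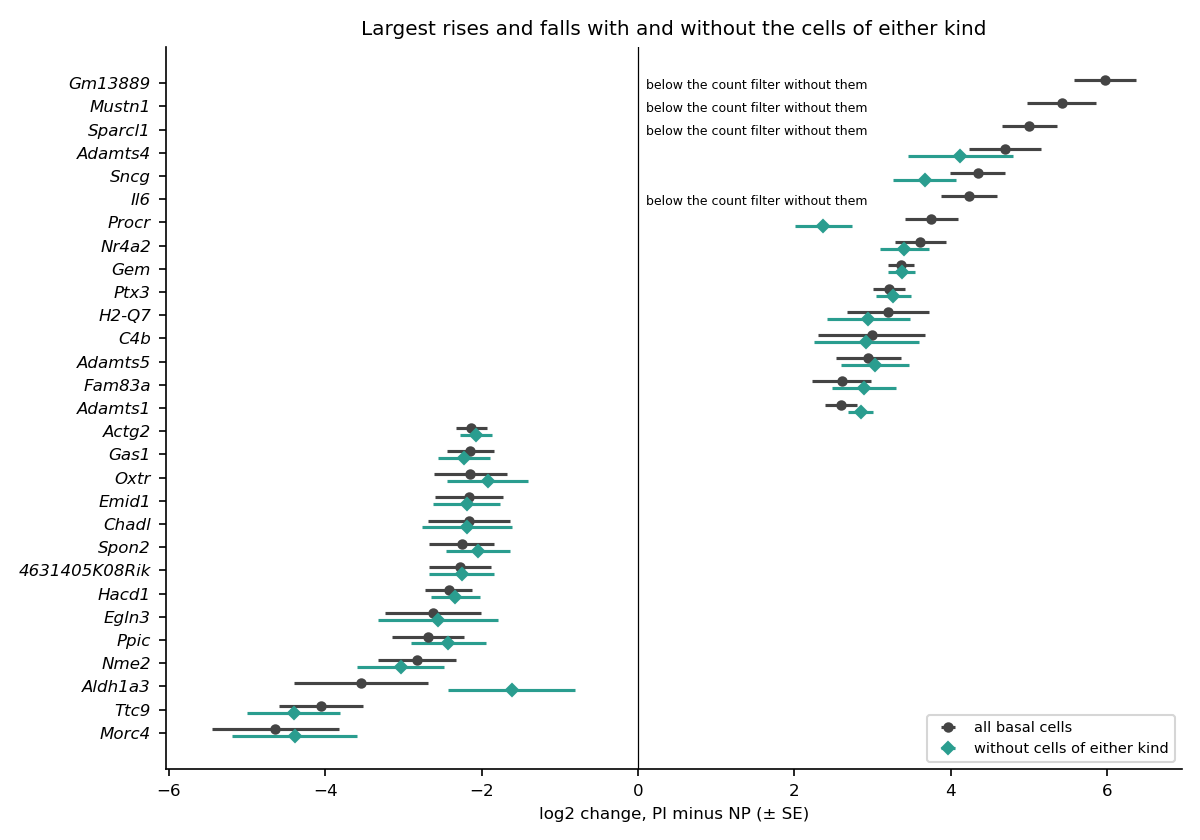
Log2 change of PI against NP with its SE for the 15 largest rises and 14 of the 15 largest falls, in all basal cells (circles) and without cells of the C15 gene set or with mostly luminal keratin (diamonds). Gm13889, Mustn1, Sparcl1 and Il6 have no second value, Procr moves from 3.75 to 2.37, and Gem stays at 3.37.

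Signalling genes of the Wnt pathway split. This pathway supports basal self-renewal. Of 23 genes 3 rose and 3 fell, beside 2.91% and 1.54% of all genes tested, with a median log2 change of 0.36. Sfrp1, a secreted Wnt inhibitor, rose from 20.1 and 22.4 CPM to 164 and 88.5 CPM (log2 2.43 ± 0.32, edgeR adjusted p = 0.00386). Lgr5, the R-spondin receptor, had 24.3 and 22.8 CPM in NP and 43.2 and 78.7 CPM in PI (log2 1.51 ± 0.32, edgeR adjusted p = 0.0331), and without PI_2 its log2 change was 0.79 (edgeR adjusted p = 0.557). Procr was the other gene that rose. The receptor Fzd7 fell from 97.8 and 121 CPM to 51.9 and 29.5 CPM (log2 -1.59 ± 0.32, edgeR adjusted p = 0.0270), and the ligand Wnt5b fell by 1.68 (edgeR adjusted p = 0.0304). Fzd1 passed the test with only 2 UMIs in PI against 192 in NP, a ratio of 0.157 (exact 95% interval 0.0189 to 0.576, counting error only).

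Some ligands and receptors of other pathways also passed, where 2.91% of all genes tested rose and 1.54% fell. Jag1, a Notch ligand of basal cells, was the 1 of 11 Notch genes that passed and fell from 299.8 and 307 CPM to 104 and 144 CPM (log2 -1.22 ± 0.20, edgeR adjusted p = 0.0122). Of 18 EGF and FGF genes 4 rose and 0 fell (median log2 0.39). The receptor Fgfr2 rose from 55.5 and 62.3 CPM to 242 and 193 CPM (log2 1.85 ± 0.21, edgeR adjusted p = 0.00189). Fgfr1, the EGF receptor ligand Hbegf and Dusp6, a phosphatase that dampens ERK, rose by 0.90, 0.96 and 0.84 on the log2 scale (edgeR adjusted p = 0.0208, 0.0478 and 0.0282). Of 21 TGF-beta and BMP genes the inhibitor Smad7 rose by 1.47 (edgeR adjusted p = 0.00718) and Id4, a transcriptional inhibitor found in basal cells, fell by 1.02 (edgeR adjusted p = 0.0173).

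Binding proteins of the insulin-like growth factors moved both ways. Of 11 genes of this axis 3 fell and 1 rose, beside 1.54% and 2.91% of all genes tested, with a median log2 change of -0.57. Igfbp3 fell from 1096 and 1134 CPM to 251 and 387 CPM (log2 -1.74 ± 0.20, edgeR adjusted p = 0.00206). Igfbp7 (5:77349240-77408041, minus strand) fell from 759 and 827 CPM to 294 and 285 CPM (log2 -1.46 ± 0.17, edgeR adjusted p = 0.00200), and by 2.33 without cells of either kind. The protease Htra1, which cleaves binding proteins and matrix, fell by 1.35 (edgeR adjusted p = 0.0181). Igfbp6, which prefers IGF-II, rose from 14.5 and 18.5 CPM to 51.9 and 49.2 CPM (log2 1.62 ± 0.36, edgeR adjusted p = 0.0374).

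Immediate early and stress genes made up the list with the most calls. Such genes are transcribed within minutes of a stimulus, tissue dissociation included. Of 25 tested 11 rose and 0 fell, beside 2.91% and 1.54% of all genes tested, with a median log2 change of 0.86. In the fit without cells of either kind 16 of 25 rose and 0 fell, beside 4.15% and 2.44% of all genes in that fit. Fosb, a subunit of the AP-1 factor, had 152 and 134 CPM in NP and 328 and 400.0 CPM in PI (log2 1.37 ± 0.18, edgeR adjusted p = 0.00352). Nr4a1, an orphan nuclear receptor, rose from 31.1 and 25.7 CPM to 138 and 95.1 CPM (log2 1.93 ± 0.28, edgeR adjusted p = 0.00703). Fosl2, Dnajb1, Btg2, Dusp1, Hspb1, Fosl1, Egr1, Socs3 and Junb rose by 0.68 to 1.87 on the log2 scale. The same list measured in the luminal cells of the same libraries had 6 genes higher and 2 lower in luminal progenitors, where 14% of all genes tested were higher and 13.1% lower, and 2 higher and 3 lower in hormone-sensing cells, where the shares were 8.47% and 6.25%.

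All 3 genes of the NR4A family of orphan nuclear receptors rose in PI basal cells. Nr4a2 was among the 15 largest rises, from 15.7 and 20.0 CPM to 121 and 269 CPM (log2 3.61 ± 0.33, edgeR adjusted p = 6.28e-04). Nr4a3, added after its values were seen because it completes the family, rose from 13.1 and 18.1 CPM to 43.2 and 98.4 CPM (log2 2.40 ± 0.38, edgeR adjusted p = 0.0106). The rise was not particular to basal cells: Nr4a1, Nr4a2 and Nr4a3 also rose by 0.74, 1.94 and 1.91 in luminal progenitors and by 0.92, 1.65 and 2.20 in hormone-sensing cells. The difference between basal and luminal changes passed for Nr4a2 (1.75, edgeR adjusted p = 0.00198) and not for Nr4a1 (1.04, edgeR adjusted p = 0.0519) or Nr4a3 (0.29, edgeR adjusted p = 0.823). The family is known for promoters with half-sites of the cyclic AMP response element, and the 250 bases upstream of each start (RefSeq, GRCm38.p6) are printed because the 3 genes moved together. The Nr4a1 sequence is chr15:101266596-101266845 (plus strand), that of Nr4a2 chr2:57124004-57124253 (minus strand) and that of Nr4a3 chr4:48045055-48045304 (plus strand), each written 5′ to 3′ on the strand of its gene with the half-sites TGACG, or CGTCA on the other strand, in capitals.
Nr4a1: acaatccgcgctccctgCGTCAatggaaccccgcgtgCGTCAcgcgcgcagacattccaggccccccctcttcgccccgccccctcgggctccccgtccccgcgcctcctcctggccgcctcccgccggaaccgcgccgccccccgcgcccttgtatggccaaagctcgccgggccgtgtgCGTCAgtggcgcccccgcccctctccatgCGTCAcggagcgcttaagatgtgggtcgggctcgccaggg
Nr4a2: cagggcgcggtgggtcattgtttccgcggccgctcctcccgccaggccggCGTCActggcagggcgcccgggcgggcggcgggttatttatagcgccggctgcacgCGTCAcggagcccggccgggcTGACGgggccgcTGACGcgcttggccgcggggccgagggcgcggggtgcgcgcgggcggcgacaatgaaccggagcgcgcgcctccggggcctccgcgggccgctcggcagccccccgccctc
Nr4a3: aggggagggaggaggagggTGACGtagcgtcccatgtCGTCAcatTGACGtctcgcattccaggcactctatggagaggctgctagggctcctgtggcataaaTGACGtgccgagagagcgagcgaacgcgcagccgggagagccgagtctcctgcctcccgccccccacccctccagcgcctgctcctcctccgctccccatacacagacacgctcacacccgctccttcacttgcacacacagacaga
Each of the 3 promoters held 4 half-sites and 0 full sites TGACGTCA. Of 32851 promoters of the same length, 17.8% held at least 1 half-site and 0.137% held at least 4. The shares of genes that follow count each gene once, by its promoter with the most sites, and so are another measure. Of the 6569 tested genes with a promoter in the table the shares were 33.3% and 0.457%, and of the 192 such genes that rose they were 44.8% and 2.60% (86 and 5 genes). The NR4A genes, which prompted the search, are 3 of those 5, so the last share says nothing of other genes. A match describes the letters of the window and not a bound site.

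Called members of a list of basal and mesenchymal transcription factors rose. Of 20 such factors 4 rose and 0 fell, beside 2.91% and 1.54% of all genes tested, with a median log2 change of 0.46. In the fit without cells of either kind 7 of 19 rose and 1 fell, beside 4.15% and 2.44% of all genes there, with a median of 0.20. Sox9, a factor of mammary stem and luminal progenitor cells, had 247 and 236 CPM in NP and 458 and 620 CPM in PI (log2 1.19 ± 0.18, edgeR adjusted p = 0.00770). Klf4 rose from 225 and 208 CPM to 519 and 607 CPM (log2 1.39 ± 0.16, edgeR adjusted p = 0.00206). Sox4 and Runx1 rose by 0.81 and 0.92 (edgeR adjusted p = 0.0252 and 0.0164). These factors are not particular to basal cells. In NP luminal progenitors Sox9 had 581 and 550 CPM and Klf4 485 and 371 CPM, above their NP basal levels. Sox4 and Runx1 were lower there than in NP basal cells. Among cell cycle genes Cdkn1a (17:29090976-29100727, plus strand), the inhibitor p21, rose from 199 and 174 CPM to 881 and 869 CPM, the 2 PI mice again close together (log2 2.23 ± 0.16, edgeR adjusted p = 2.09e-04). After thinning to 2000 UMIs, 25.8% and 25.1% of NP and 78.6% and 69.5% of PI basal cells had a Cdkn1a UMI, beside 33.8% and 33.0% of PI luminal cells. Of 32 cell division genes only 12 could be tested, and the other called member was Tubb5, a beta-tubulin, which fell by 0.84 (edgeR adjusted p = 0.0403).

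Some genes of steroid and metabolic response passed, beside 4.45% of all genes tested. Klf9 and the kinase Sgk1, both induced by glucocorticoids, rose from 49.6 and 51.8 to 181 and 151 CPM and from 298 and 241 to 544 and 603 CPM (log2 1.67 and 1.10, edgeR adjusted p = 0.00306 and 0.0101), 2 of 13 genes of that list. Of 19 glycolysis and hypoxia genes 3 rose and 3 fell (median log2 0.14). Vegfa, the endothelial growth factor, rose from 99.0 and 153 CPM to 579 and 426 CPM (log2 1.97 ± 0.25, edgeR adjusted p = 0.00282), with Ndrg1 and the glucose transporter Slc2a1 at 1.01 and 1.09. The glycolytic enzymes Eno1 and Pgk1 fell by 1.21 and 1.76, and Egln3, an oxygen-sensing hydroxylase, by 2.62 (edgeR adjusted p = 0.0149, 0.0287 and 0.0439). When these cells were left out Egln3 no longer passed (edgeR adjusted p = 0.0730). Txnrd1, thioredoxin reductase, was the 1 gene of 19 called in oxidative defence, at 1.03.

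**Figure D4:**
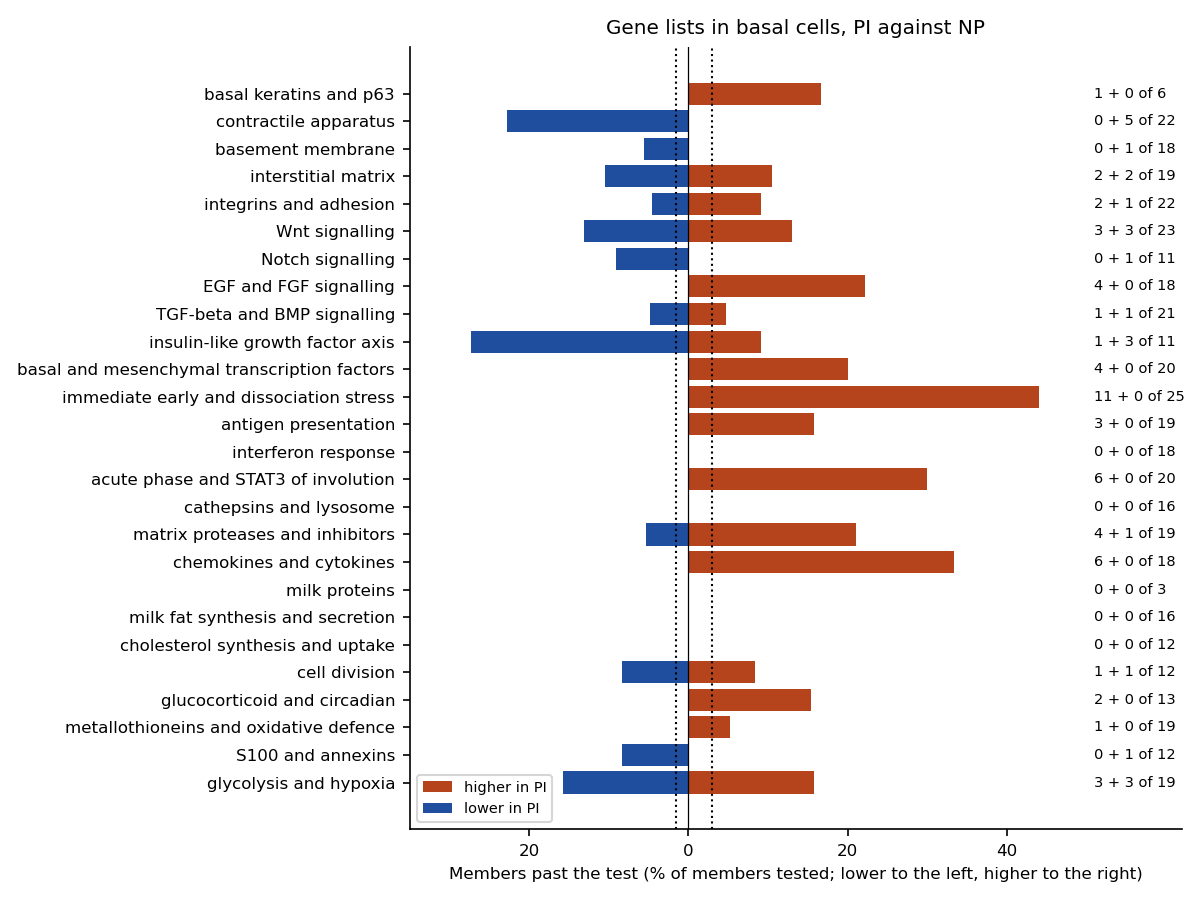
Bars give the share of each list's tested genes that passed the test (%), higher in PI to the right and lower to the left, with the counts printed beside them and the dotted lines at the shares over all genes tested (2.91% higher and 1.54% lower). The immediate early and stress list has 11 of 25 higher and the contractile list 5 of 22 lower.

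Chemokines and cytokines rose in 6 of 18 genes and fell in 0, beside 2.91% and 1.54% of all genes tested. The median log2 change of the list was only 0.09. Cxcl14, the most abundant, had 3589 and 4056 CPM in NP and 7216 and 6891 CPM in PI (log2 0.88 ± 0.17, edgeR adjusted p = 0.0221). Cxcl2, a neutrophil attractant, had 158 and 167 CPM in NP and 354 and 348 CPM in PI (log2 1.11 ± 0.16, edgeR adjusted p = 0.00712). Cxcl12 and Tnfrsf12a, the receptor of the cytokine TWEAK, rose by 0.87 and 0.66 (edgeR adjusted p = 0.0284 and 0.0486). Il6, described above, was also among the 6, with 97.6% of its PI UMIs in cells with the C15 gene set. It is 1 of the genes that chose those cells and entered the test only through PI. Without cells of either kind 5 of 17 genes of this list rose and 0 fell. Il11, a ligand of the gp130 receptor, rose from 17.8 and 19 CPM to 43.2 and 118 CPM (log2 2.35 ± 0.37, edgeR adjusted p = 0.00956) and without PI_2 did not pass (log2 1.17, edgeR adjusted p = 0.386). Of 20 acute phase and STAT3 genes 6 rose and 0 fell, with a median log2 change of 0.66. These were C4b, a complement component, the copper carrier Cp, Hp, Osmr, the receptor of oncostatin M, the kinase Pim1 and Socs3. Of them C4b, as given above, needed a PI library to enter the test. Hp, haptoglobin, was high in 1 PI mouse, with 10.3 and 13.8 CPM in NP and 8.64 and 367 CPM in PI, and 66% of its PI UMIs were in cells with mostly luminal keratin. The levels without cells of either kind were 5.79 and 8.28 CPM in NP and 9.96 and 161 CPM in PI (log2 4.01, edgeR adjusted p = 0.00445). Without PI_2 its log2 change in all basal cells was -0.49.

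The antigen presentation genes that rose were of class I. Of 19 antigen presentation genes 3 rose and 0 fell, beside 2.91% and 1.54% of all genes tested, with a median log2 change of 0.97. As given above, H2-Q7 needed a PI library to enter the test. H2-D1 rose from 719 and 560 CPM to 1806 and 1239 CPM (log2 1.23 ± 0.21, edgeR adjusted p = 0.0141), H2-K1 by 0.82 (edgeR adjusted p = 0.0252), and H2-Q7 from 5.62 and 8.56 CPM to 112 and 39.3 CPM (log2 3.20 ± 0.53, edgeR adjusted p = 0.0122). Class I genes are close in sequence and share reads, so their separate levels are uncertain. Class II was another matter: Cd74 had 88.0 and 69.4 CPM in NP, 821 CPM in PI_1 and 29.5 CPM in PI_2, and 169 of the 171 class II UMIs of PI_1 came from 5 cells. None of 18 interferon response genes passed in edgeR, and Ifitm3, a membrane protein against viruses, had 2257 and 2238 CPM in NP and 2705 and 2462 CPM in PI (edgeR adjusted p = 0.502). None of 16 cathepsin and lysosome genes passed either. Ctsl, cathepsin L, stood at 1250.3 and 1011 CPM in NP and at 1633 and 1702 CPM in PI (edgeR adjusted p = 0.0903).

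Milk genes were called or not by which basal cells were summed. Of 8 milk proteins 3 could be tested in all basal cells and 0 passed in edgeR, whereas 2 of 2 passed without cells of either kind, and the same list had 7 of 7 higher in luminal progenitors. Csn3, kappa-casein, had 61.6 and 48.5 CPM in NP and 86.4 and 111 CPM in PI (log2 0.89, edgeR adjusted p = 0.0831). Without cells of either kind Csn3 had 15.6 and 25.4 CPM in NP and 89.6 and 107 CPM in PI (log2 2.37 ± 0.37, edgeR adjusted p = 0.00445). Csn1s1, alpha-S1-casein, had 8.89 and 0 CPM in NP and 43.2 and 65.6 CPM in PI. Without cells of either kind it had 0 CPM in both NP libraries and 49.8 and 62.6 CPM in PI. It thus entered that fit only through PI, the group where it was high. At 2000 UMIs per cell 10.7% and 10.2% of PI basal cells had a Csn1s1 UMI, beside 66.8% and 37.8% of PI luminal cells. The part of free RNA in these UMIs was not tested. None of 16 milk fat genes and none of 12 cholesterol genes passed in all basal cells, with median log2 changes of -0.01 and 0.20.

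Among the 15 largest falls, 12 were also called without cells of either kind. Nme2, a nucleoside diphosphate kinase, had 112 and 86.1 CPM in NP and 0 and 19.7 CPM in PI (log2 -2.82, edgeR adjusted p = 0.0153). Hacd1, of very long chain fatty acid elongation, fell from 133 and 150.3 CPM to 34.6 and 22.9 CPM (log2 -2.42 ± 0.30, edgeR adjusted p = 0.00259). Gas1, a membrane protein that binds hedgehog ligands, fell from 103 and 107 CPM to 17.3 and 26.2 CPM (log2 -2.14 ± 0.30, edgeR adjusted p = 0.00597). Morc4 and Ttc9 passed with 1 and 3 UMIs in PI against 390 and 787 in NP, ratios of 0.0387 (exact 95% interval 9.78e-04 to 0.217) and 0.0576 (0.0119 to 0.169). Ppic, 4631405K08Rik, Spon2, Chadl and Emid1 fell by 2.16 to 2.69 on the log2 scale, from 53.1 to 155 CPM in NP. Their levels in PI_1 and PI_2 rested on 1 and 3, 2 and 5, 3 and 3, 0 and 6, and 0 and 15 UMIs in that order. Chadl was called in only 7 of the 20 draws of NP cells. Aldh1a3, an enzyme of retinoic acid synthesis found in luminal progenitors, had 156 and 59.9 CPM in NP and 0 and 13.1 CPM in PI (edgeR adjusted p = 0.0480) and was not called without cells of either kind (edgeR adjusted p = 0.265). S100a14 fell from 106 and 98.4 CPM to 34.6 and 26.2 CPM (log2 -1.84, edgeR adjusted p = 0.0105), the 1 called of 12 S100 and annexin genes.

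Whether basal cells changed differently from the luminal cells of the same mice was tested as a difference of changes, with luminal progenitors (C6 and C7) and hormone-sensing cells (C1 to C4) together as the other side and each mouse as a block. The luminal cells on their own had many more calls, 2916 of 10766 genes in luminal progenitors (27.1%) and 1853 of 12584 in hormone-sensing cells (14.7%), from sums over 317 to 2962 cells. The difference passed in 586 of 12261 genes (4.78%), 203 with the higher change in basal cells (1.66%) and 383 with the lower (3.12%). The split moved with the scaling: on library totals it was 289 to 171, and the median difference over all genes was -0.07 in place of -0.25.

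Adamts1 had the largest difference toward a higher change in basal cells among the genes named. It rose in basal cells and fell by 3.40 in luminal progenitors and by 1.97 in hormone-sensing cells, a difference of 5.12 ± 0.24 on the log2 scale (edgeR adjusted p = 1.62e-12). Igfbp7 did the reverse, falling in basal cells and rising by 1.82 and 1.40 in the luminal classes, with a difference of -3.22 ± 0.21 (edgeR adjusted p = 1.14e-09). Bcam likewise fell in basal cells and rose by 1.25 and 0.97 in luminal cells (difference -2.37 ± 0.21, edgeR adjusted p = 2.34e-07). Thbs1, Sox9 and Runx1 rose in basal cells and fell in luminal progenitors, with differences of 1.85, 1.60 and 1.08 (edgeR adjusted p = 5.29e-06, 9.64e-06 and 3.37e-04). Cdkn1a changed by -0.06 and 0.26 in the luminal classes, where it did not pass, and its difference was 1.98 ± 0.17 (edgeR adjusted p = 8.60e-08). Of the 25 immediate early and stress genes 9 had a higher change in basal cells and 0 a lower one, beside 1.66% and 3.12% of all genes tested.

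Other genes fell in each of the 3 classes. Nme2, Chadl, Egln3, S100a14 and Postn were called lower in basal cells, luminal progenitors and hormone-sensing cells, with differences of -0.27 to 0.52 that did not pass (edgeR adjusted p = 0.850 to 0.977). In the basal sums of PI_1 and PI_2, Nme2 and Chadl each had only 0 and 6 UMIs and Egln3 had 3 and 3. Vegfa and Slc2a1 rose in each class, and their differences of 0.13 ± 0.19 and 0.17 ± 0.18 did not pass (edgeR adjusted p = 0.776 and 0.678).

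**Figure D5:**
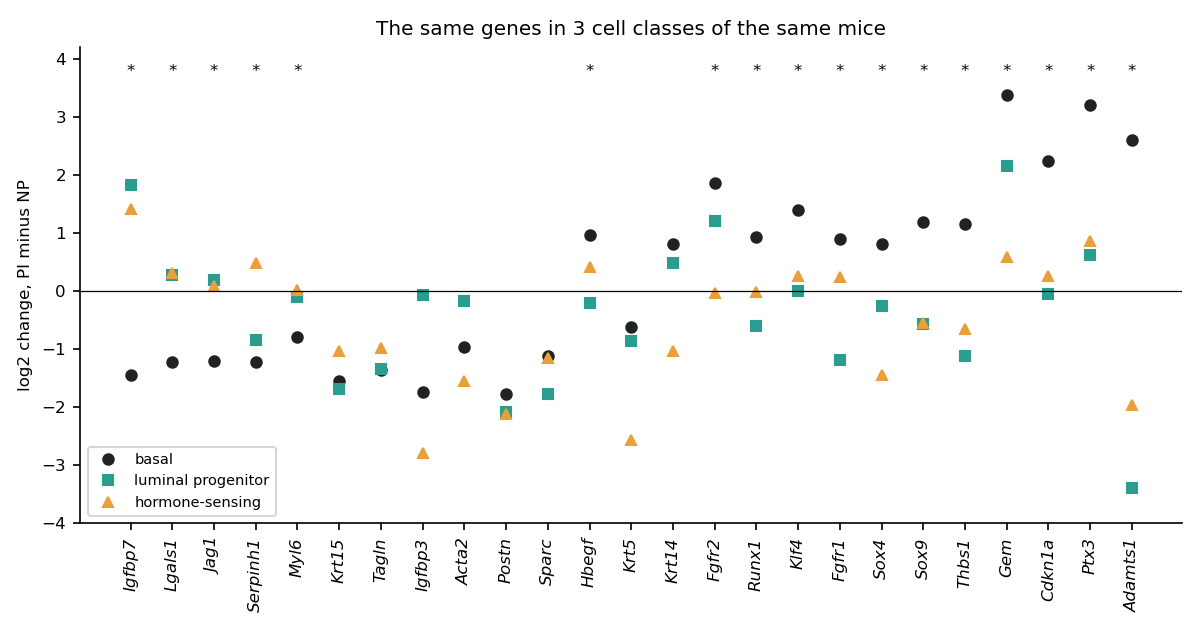
Log2 change of PI against NP in basal cells (circles), luminal progenitors (squares) and hormone-sensing cells (triangles) of the same 4 mice, ordered by the difference between basal and luminal changes, with an asterisk where that difference passed. Igfbp7 and Adamts1 stand at the 2 ends, with differences of -3.22 and 5.12.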

How the data were processed

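Single cells of 4 libraries, each from 1 mouse, entered the main comparison. The authors deposited tables of UMI counts, as whole numbers for each gene in each cell, made with Cell Ranger; STAR and the mm10 genome are named in the submitters' processing notes. The deposited annotation gave each cell's library, quality flag and subcluster, which were used as they stand, and its mitochondrial UMIs as a fraction of the total. Doublets were gated at the sort, and the authors excluded a subcluster that they took to be doublets. No doublet caller was run here on the single cells. Combined tables that repeat the same cells were not used. Of 27998 genes in the matrices, 56 symbols are shared by several gene IDs, and genes were kept apart by ID. Barcodes found in more than 1 library (392) were absent after the authors' filter.

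UMIs were summed per library and tested with edgeR 4.0.16 in R 4.3.3 (quasi-likelihood test with default settings, TMM scaling, filterByExpr with a minimum count of 10 and a total of 15, Benjamini-Hochberg adjustment, two-sided). The filter applies its minimum count at the median library size and asks it of 2 libraries, so 1 UMI was enough in PI_1. The fit had 2 residual and 7.48 prior degrees of freedom, and the difference of changes had 4 and 18.5. Sums ran from 114382 to 4254570 UMIs, and intervals are exact at 95% and cover counting error only. Replicate numbers are not said to pair the mice. Deviations from the group means correlated at -0.01 over 8511 genes. That value cannot exclude a pairing, because the PI deviations hold much counting error.

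Members and gene lists were chosen with earlier results of these data known. Genes named were the 15 largest rises and 15 largest falls among called genes with a group mean of at least 50 CPM and no overlap between libraries, genes the study names as basal or stem cell markers, called members of the lists, and up to 3 of the most abundant members of a list without calls. Nr4a3 was added after its values were seen, and 1 of the 15 falls is not reported here. Libraries did not overlap in 4553 of 8511 genes (53.5%).

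Cells of the C15 gene set were those with over 0.5% of UMIs in the 50 genes with the highest ratio of C15 to C14 in both lactation libraries, and cells with mostly luminal keratin had over 50% of keratin UMIs in luminal keratins. Both definitions were chosen after seeing the data. Thinning drew 2000 UMIs from each cell, and the luminal shares come from up to 500 cells a library. Coordinates are of GRCm38, matched by gene ID. Promoters are RefSeq entries of GRCm38.p6, matched by symbol for 6569 of the genes tested. The scripts were tested on simulated data, and alternatives included DESeq2 1.42.0. Statistics used Python 3.11.15 with numpy 2.4.6, scipy 1.17.1 and pandas 2.3.3, and figures matplotlib 3.10.9.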

Additional observations from a re-analysis of the deposited data

Results flagged for a closer look

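The PI against NP change differed between basal and luminal cells by the test of the difference in 586 genes. Among the 15 largest rises and 15 largest falls of basal cells it passed in 12. The change was higher in basal cells for Adamts1 (difference 5.12 on the log2 scale), Adamts5 (3.88), Sparcl1 (2.96), Gm13889 (2.89), Fam83a (2.43), Ptx3 (2.35), Sncg (2.33), Gem (1.88) and Nr4a2 (1.75). It was lower in basal cells for Morc4 (-4.42), Ttc9 (-3.44) and Hacd1 (-1.90). Sparcl1 and Gm13889 had 100% and 95% of their PI basal UMIs in cells of the C15 gene set, and Morc4 and Ttc9 had 1 and 3 UMIs in the PI libraries.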

How the results depend on the processing

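Of 8511 genes, 379 passed (248 higher, 131 lower). With 2 mice a group the count moved with the fit, and the cause was not tested except where fewer UMIs or genes enter. With each mouse's replicate number as a block 0 genes passed in edgeR in either direction, 1218 had an unadjusted p under 0.05 (residual degrees of freedom 1) and edgeR's legacy test called 518; with no filter on low counts 0 of 15804 passed, higher or lower, with 2052 at an unadjusted p under 0.05 and 18 in the legacy test. Counts thinned to the smallest sum gave 179 (96 higher, 83 lower), glmTreat at a log2 change of 1 and a false discovery rate of 0.01 gave 16 (15 and 1), all 8 libraries in 1 fit gave 310 lower, the legacy test 632 (403 and 229), and without cells with mostly luminal keratin 679 passed (428 and 251). Leaving out 1 library gave 209 to 1268 genes, 143 to 663 higher and 64 to 605 lower, with 249 without NP_1, 209 without NP_2, 1268 without PI_1 and 678 without PI_2; the lone mouse is then assumed to vary like the others. DESeq2 called 371, library totals 327, C12 cells 384 and cells without the C15 gene set 266.

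For the difference of changes (586; 203 higher, 383 lower in basal cells), no replicate block gave 328 (119 and 209), luminal progenitors alone 356 higher, DESeq2 227 lower, library totals 171 lower, and leaving out 1 library 261 to 632 genes, 90 to 254 higher and 171 to 378 lower. Hp, Krt18, Krt19 and Prlr had log2 changes of -0.49, -0.68, -4.07 and -11.8 without PI_2 and of 4.95, 0.77, 1.01 and 1.56 without PI_1, and Cd74 -1.45 without PI_1 and 3.30 without PI_2. Of the 97 named calls, drawn-down NP cells kept 83 of 96 and DESeq2 94 of 96. For drawn-down cells a call was kept by the median adjusted p over those draws in which the gene was tested. Of the 20 draws, Adamts5 and Fzd1 were tested in only 2 and Hp in 1, and Aldh1a3 was tested in 12 and called in 8. Lost both without NP_1 and without NP_2 were Myl6, Cd44, Dst, Lgr5, Wnt5b, Dusp6, Fgfr1, Igfbp6, Runx1, Egr1, Fosl1, Junb, Socs3, H2-K1, Osmr, Plaur, Cxcl12, Tnfrsf12a, Tubb5, Txnrd1 and Ndrg1; without NP_1 also C4b, Chadl, Cxcl2 and Pgk1, and without NP_2 also Oxtr, Bcam, Hbegf, Id4, Sox4, Dusp1, Cp, Sgk1, Eno1 and Slc2a1. Lost without PI_2 were Adamts5, Spon2, Cd44, Fzd1, Fzd7, Lgr5, Wnt5b, Hbegf, Igfbp6, Btg2, Egr1, Junb and Il11.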

Other observations

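Basal cells of the gestation (G) and lactation (L) libraries, which were not part of the main comparison, give the same genes a wider range, here in CPM of unscaled sums and with no test. Gem stood at 97.8 and 98.3 CPM in NP, 349 and 331 CPM in G, 795 and 979 CPM in L and 979 and 1056 CPM in PI. Adamts1 had 137 and 93.8 CPM in NP, 318 and 292 CPM in G, 1198 and 1218 CPM in L and 796 and 640 CPM in PI. Cdkn1a had 200 and 166 CPM in NP, 408 and 429 CPM in G, 502 and 553 CPM in L and 892 and 848 CPM in PI. The PI mice were thus highest in Cdkn1a, at or above the lactation mice in Gem and between gestation and lactation in Adamts1.

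Acta2 had 5568 and 5371 CPM in NP, 14205 and 10456 CPM in G, 26568 and 22784 CPM in L and 2824 and 2847 CPM in PI, so that the PI mice lay below every other stage. Oxtr had 52.2 and 72.4 CPM in NP, 743 and 672 CPM in L and 8.74 and 16 CPM in PI. Fosb had 153 and 128 CPM in NP, 374 and 203 CPM in G, 1244 and 1296 CPM in L and 332 and 390.2 CPM in PI. Pdpn and Plaur were each higher in both PI mice than in any mouse of the other stages, at 437 and 576 CPM and at 455 and 387 CPM in PI.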
